A study of Mus musculus with 9 samples.

Results

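The transcription factors described here are Runx1 with its partner Cbfb, the CCAAT/enhancer-binding proteins Cebpa, Cebpb, Cebpd and Cebpe, and the regulators Irf8, Klf4 and Gfi1. They were taken by gene symbol, 9 of the 23279 mouse gene rows in the deposited tables, and each symbol had 1 row. The libraries are bulk RNA sequencing of mouse pro-B cell cultures, 3 libraries in each of 3 groups. In the Ts1Rhr group, on an FVB x C57BL/6 F1 background, the mice carry an extra copy of the part of chromosome 16 from Cbr1 to Fam3b. In the HMGN1_OE group, on a C57BL/6 background, the mice overexpress Hmgn1, a gene of that segment for a nucleosome-binding protein. What promoter, not given in the sources used here, drives the overexpression cannot be said. The third group, WT, comes from wild-type littermates of a strain background not given in the sources used here. Strain and genotype therefore cannot be told apart between the mutant groups, and strain may also differ in the comparisons with WT. In all groups, marrow of mice aged 6 to 8 weeks grew for 7 days in methylcellulose with interleukin-7, the colonies of a culture were pooled, RNA was taken from equal numbers of cells, and ERCC spike-in RNAs (synthetic RNAs of known amount) were added. The labels number the samples as biological replicates without naming the animals, so a p-value measures the spread between these samples.

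Runx1 encodes the DNA-binding subunit of core-binding factor, and Cbfb encodes the subunit that binds no DNA itself but holds Runx1 on its site. Core-binding factor is required for the first definitive blood stem cells and again in early B cells, where it acts upstream of Ebf1. C/EBPα opens the granulocyte and monocyte path in progenitors, and forced C/EBPα or C/EBPβ turns B cells into macrophages. Irf8 and Klf4 act in monocyte formation, Irf8 also in B cells, and Gfi1 is a repressor needed for neutrophils and for early lymphoid cells.

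Each gene has a raw FPKM value (fragment counts divided by transcript length and by the library's mapped fragments) and an FPKM value normalised further by the authors, called normalised FPKM here. FPKM are scaled per length, so levels of different genes can be set side by side. Of the 9 factors, 8 reached a mean of 1 raw FPKM over the libraries and entered the test, a limma fit over 10878 genes on log2 values in which a gene is called at a Benjamini-Hochberg adjusted p under 0.05. Cebpe was too low to enter. Genes at 1 raw FPKM or more numbered 10735 to 10779 in Ts1Rhr and 10720 to 10780 in HMGN1_OE, against 10824 to 10893 in WT. The numbers were close, but every WT library had more than every library of the other groups. Hmgn1, the gene the HMGN1_OE label calls overexpressed, had 125.3 to 126.7 raw FPKM in Ts1Rhr and 71.88 to 77.19 in HMGN1_OE, against 58.53 to 67.28 in WT. It rose in Ts1Rhr against WT on raw FPKM (log2 fold change 1.03, SE 0.12, adjusted p from limma 0.009232). On normalised FPKM it was not called there (log2 fold change 0.94, SE 0.26, adjusted p from limma 0.09092). In HMGN1_OE against WT it was not called on either table (raw log2 fold change 0.26, SE 0.12, adjusted p from limma 0.3446). Ts1Rhr replicate 3 stood apart by its sex-linked transcripts, with 41.83 raw FPKM of the Y-linked Ddx3y, against at most 0.0642 in the other libraries, and 0.4431 of Xist, against 94.16 to 193. WT replicate 1 stood apart by its ribosomal RNA row Rn45s, at 10510 raw FPKM, against 324.8 to 4495 elsewhere.

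The cultures held RNA of B-lineage cells and of myeloid cells together. The B-lineage list, 18 genes such as Pax5 and Rag1, summed to 1742 to 2136 raw FPKM in Ts1Rhr and 1634 to 2153 in HMGN1_OE, against 1113 to 1575 in WT. The 16 macrophage and monocyte markers summed to 14270 to 16390 raw FPKM in Ts1Rhr and 12850 to 26790 in HMGN1_OE, against 21740 to 32970 in WT, and none of the 16 was at 0 in any library. Most of that sum was Lyz2, the lysozyme of macrophages and neutrophils, with a mean of 14600 raw FPKM in Ts1Rhr and 18000 in HMGN1_OE, against 23700 in WT. The 12 neutrophil markers summed to 85.46 to 211.5 raw FPKM in Ts1Rhr and 79.71 to 264.8 in HMGN1_OE, against 191.9 to 324.6 in WT. In bulk RNA, fewer cells of a type and less RNA per cell cannot be told apart, and this holds for every factor below.

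In WT libraries the factors spanned a wide range of levels. On raw FPKM, Irf8 was highest at 53.0 ± 2.52 (SD, n = 3), followed by Cbfb at 43.4 ± 2.67 and Cebpa at 40.7 ± 4.02. Runx1 averaged 20.3 ± 2.62 and Cebpb 18.6 ± 3.37. Below these came Cebpd at 4.5 ± 1.82, Klf4 at 3.98 ± 0.516 and Gfi1 at 2.35 ± 0.529, with Cebpe last. Neighbours in this order whose WT libraries overlapped were Cbfb with Cebpa, Runx1 with Cebpb, and Cebpd with Klf4. In Ts1Rhr the order by mean raw FPKM was Irf8, Cbfb, Runx1, Cebpa, Cebpb, Gfi1, Cebpd, Klf4, Cebpe, so Runx1 and Gfi1 stood higher in the order than in WT and Cebpa, Cebpd and Klf4 lower. Runx1 exceeded Cebpa in Ts1Rhr replicates 2 and 3, at 47.5 and 37.1 against 20.1 and 17.3 raw FPKM of Cebpa, but not in replicate 1, at 28.6 against 31.0. Of the HMGN1_OE libraries, Runx1 exceeded Cebpa in replicate 3 and in no other, and it did so in no WT library. Over all 9 libraries, Irf8 lay at percentile 87.4 of the tested genes by mean raw FPKM, Runx1 at 72.1 and Klf4 at 12.4.

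**Figure D1:**
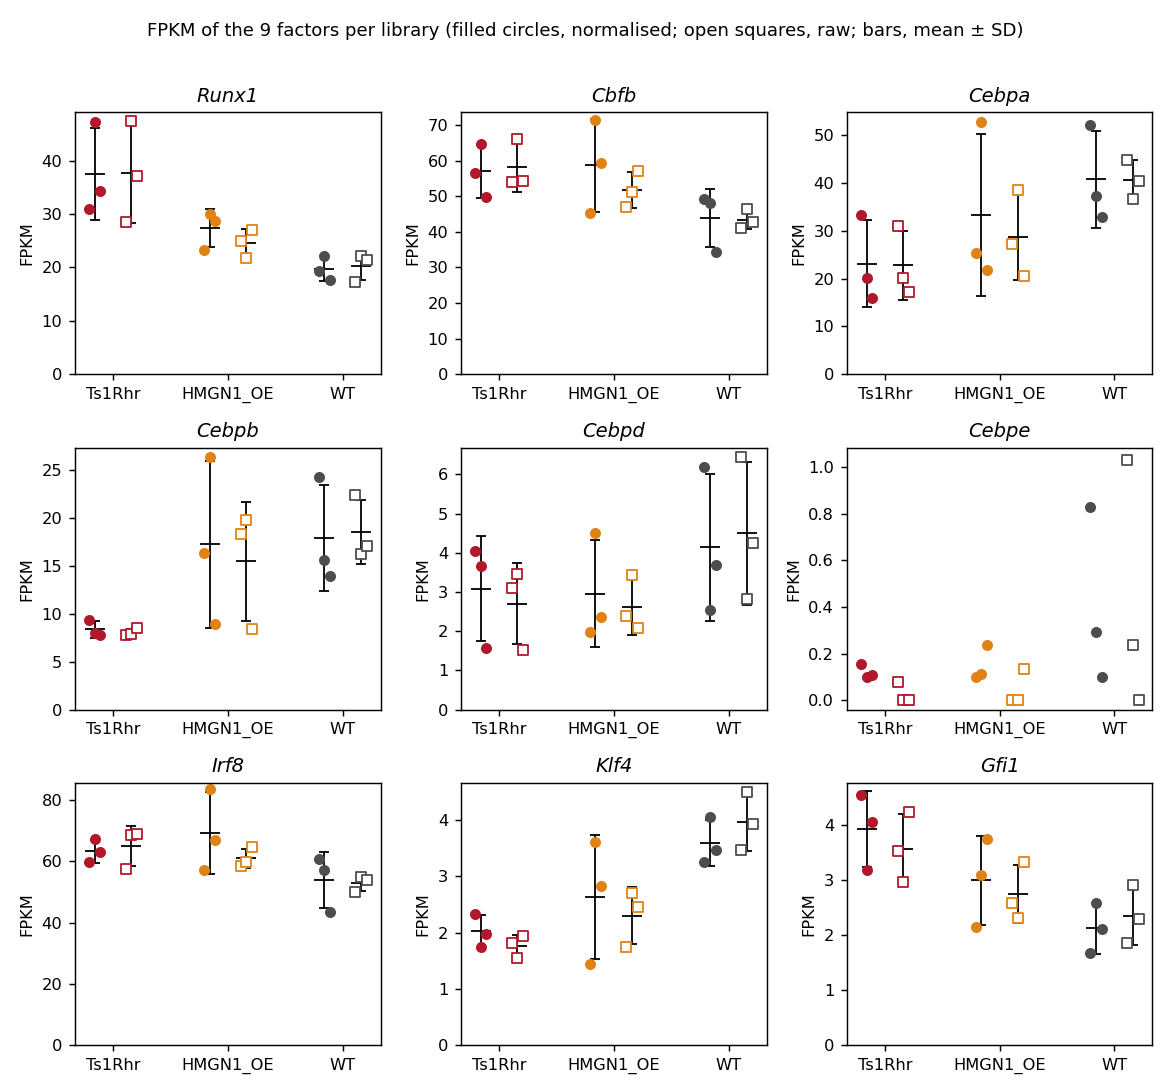
FPKM of the 9 factors in each library, 1 panel per factor on a linear axis, as filled circles (normalised) and open squares (raw), with the mean and SD of each group of 3 as black bars except for Cebpe. On normalised FPKM, Runx1 libraries sit at 31.0 to 47.2 in Ts1Rhr and 23.3 to 30 in HMGN1_OE, against 17.6 to 22.2 in WT, and Cebpb libraries at 7.77 to 9.37 in Ts1Rhr, against 14.0 to 24.3 in WT.

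Among the 8 tested factors, Runx1 had the largest positive log2 fold change between Ts1Rhr and WT on both tables, with Gfi1 close to it on normalised FPKM. Runx1 has a distal and a proximal promoter, and both are shown because the gene lies just outside the triplicated segment and its transcripts start at either of them. FPKM here are per gene, so the products of these promoters cannot be told apart. The stretches are from RefSeq on GRCm38.p6 and run 5′ to 3′ on the minus strand. They lie at chr16:92826150-92826324 for the distal promoter, at chr16:92826031-92826048 for a short stretch just after its start, and at chr16:92697330-92697579 for the proximal promoter. Capitals mark matches to TGTGGT, the core of the RUNX motif, on either strand.
Runx1 distal promoter: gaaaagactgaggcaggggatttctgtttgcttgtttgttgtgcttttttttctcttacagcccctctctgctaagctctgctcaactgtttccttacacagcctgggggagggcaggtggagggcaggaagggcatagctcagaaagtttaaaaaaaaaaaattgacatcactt
Runx1 after the distal start: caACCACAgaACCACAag
Runx1 proximal promoter: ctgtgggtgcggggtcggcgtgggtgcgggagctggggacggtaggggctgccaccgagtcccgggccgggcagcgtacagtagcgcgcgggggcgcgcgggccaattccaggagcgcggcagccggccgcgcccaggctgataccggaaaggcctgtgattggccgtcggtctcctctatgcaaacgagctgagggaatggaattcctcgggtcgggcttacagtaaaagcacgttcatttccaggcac
The distal window held the RUNX core at 29 to 34 and at 37 to 42 bases after the RefSeq start, and no other motif searched overlapped it. Of 32851 RefSeq promoter windows of the same length, which run from 250 bases before a start to 50 after it, 16.8% held TGTGGT. The proximal window held no match to it, or to the other motifs searched, which were TTGCNNAA for C/EBP, GGGNGTGG for KLF, AAATCA for GFI1 and the GAAA repeat of IRF factors.

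Normalised FPKM of Runx1 was 31.0, 47.2 and 34.3 in Ts1Rhr replicates 1, 2 and 3, and 23.3, 30 and 28.7 in HMGN1_OE, against 19.4, 22.2 and 17.6 in WT. Every Ts1Rhr library lay above every HMGN1_OE library, and every HMGN1_OE library above every WT library. The Ts1Rhr mean was 37.5 ± 8.52 (SD, n = 3), against 19.7 ± 2.32 in WT, and the log2 fold change was 0.91 (SE 0.24), a fold of 1.88. Its adjusted p from limma was 0.08, so it was not called on normalised FPKM. In this comparison 62 of 10878 genes were called, or 0.57% (0.423% upward and 0.147% downward), and none of the 8 tested factors, while 5 of the 8 had an unadjusted p under 0.05, as did 19.5% of all genes. The median gene differed by 0.12 on this scale, and with the libraries shifted to a common median the log2 fold change of Runx1 was 0.78 and passed the threshold (adjusted p from limma 0.04607). Runx1 did not pass it with raw FPKM scaled by 1 spike-in factor per library, with changed filters or with a term for replicate number.

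On raw FPKM Runx1 rose in Ts1Rhr. Its values were 28.6, 47.5 and 37.1 in Ts1Rhr, against 17.3, 22.2 and 21.4 in WT, again without overlap. The log2 fold change was 0.87 (SE 0.19, adjusted p from limma 0.03246), a fold of 1.83. Raw FPKM called 963 genes, 8.85% of all tested (4.29% upward and 4.56% downward), and 3 of the 8 factors, Runx1 upward and Cebpb and Klf4 downward. At an unadjusted p under 0.05 stood 7 of the 8 factors and 30.9% of all genes. The raw call of Runx1 was lost without Ts1Rhr replicate 2 (adjusted p from limma 0.1069), Ts1Rhr replicate 3 (0.07958), WT replicate 1 (0.1495) or WT replicate 3 (0.09288), with log2 fold changes of 0.69 to 1.05 over the 9 fits that each left out 1 library. Without both WT replicate 1 and Ts1Rhr replicate 3, the libraries that stood apart, the normalised log2 fold change of Runx1 was 0.95 (SE 0.32, adjusted p from limma 0.3292).

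Cbfb, the partner subunit, was more abundant than Runx1 in every library and differed less. Normalised FPKM of Cbfb was 56.5, 64.7 and 49.9 in Ts1Rhr, against 49.2, 48.1 and 34.4 in WT. The groups did not overlap, but the lowest Ts1Rhr value and the highest WT value were close. The log2 fold change was 0.39 (SE 0.25, adjusted p from limma 0.4025) on normalised and 0.42 (SE 0.14, adjusted p 0.07356) on raw FPKM. The ratio of Runx1 to Cbfb, taken within each library on normalised FPKM and so free of any scaling by 1 factor per library, was 0.55, 0.729 and 0.688 in Ts1Rhr and 0.515, 0.421 and 0.484 in HMGN1_OE, against 0.393, 0.462 and 0.511 in WT. On this table all Ts1Rhr ratios exceeded all others, and those of HMGN1_OE and WT overlapped. On raw FPKM the ratios were 0.529, 0.72 and 0.681 in Ts1Rhr and 0.532, 0.426 and 0.474 in HMGN1_OE, against 0.42, 0.478 and 0.502 in WT, so Ts1Rhr replicate 1 lay just below HMGN1_OE replicate 1. The ratios differed between the tables, so those on normalised FPKM were not free of the authors' further normalisation. This pair of genes was chosen after the values had been seen. The log2 difference between Ts1Rhr and WT on normalised FPKM was 0.52, with an exact two-sided permutation p of 0.1, the smallest that 3 against 3 can give, and 0.225 adjusted over the 9 ratio comparisons. For Ts1Rhr against HMGN1_OE it was 0.47 with an exact two-sided permutation p of 0.1 on normalised FPKM, and 0.42 with an exact p of 0.2 on raw FPKM.

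The relatives and cofactors of core-binding factor gave no call. Of 18 genes with a row, 15 were tested, and none was called in Ts1Rhr against WT on either table. On raw FPKM 11 had a positive and 4 a negative difference, with a median log2 fold change of 0.33 against 0.01 over all genes. The most abundant of them were Hdac3 and Hdac1, histone deacetylases, Prmt1, an arginine methyltransferase, and the corepressor Tle3. Their raw log2 fold changes were 0.43 (SE 0.34) for Hdac3, 0.49 (SE 0.17) for Hdac1, −0.04 (SE 0.24) for Prmt1 and 0.25 (SE 0.12) for Tle3, with adjusted p from limma of 0.08817 to 0.9341. Runx2, the relative best known from bone, had the lowest value of the list at −0.98 (SE 0.34, adjusted p 0.08061), the opposite sign to Runx1, and was named after its values were seen.

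**Figure D2:**
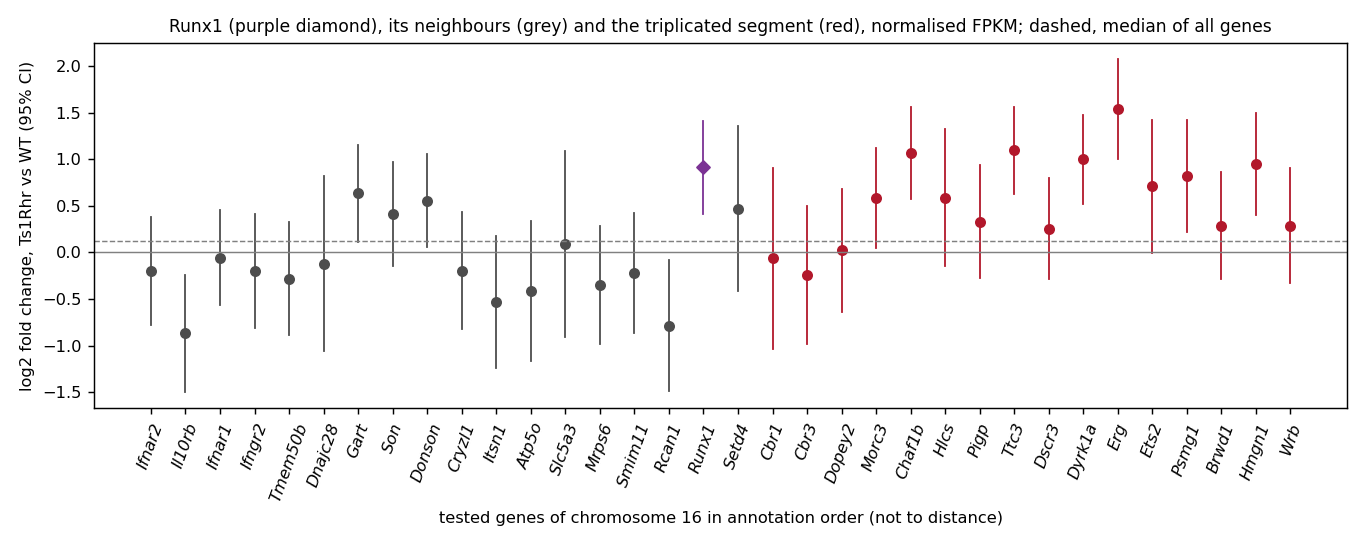
Log2 fold change of normalised FPKM in Ts1Rhr against WT for tested genes around Runx1 on chromosome 16, in annotation order along the horizontal axis, with 95% confidence intervals; the triplicated segment is red, genes outside it grey, Runx1 a purple diamond, and the dashed line is the median of all genes. Runx1 at 0.91 lies above all 17 tested neighbours outside the segment and above 11 of the 16 tested genes inside it.

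Runx1 lies next to the triplicated segment, not in it. In the RefSeq annotation of GRCm38.p6, 10 annotated genes separate Runx1 from Cbr1, the first gene of the segment, and Setd4 was the only protein-coding one. Setd4, which encodes a methyltransferase, had a normalised log2 fold change of 0.47 (SE 0.42, adjusted p from limma 0.5456). Of 20 neighbours outside the segment with a row, 17 were tested, and their median normalised log2 fold change in Ts1Rhr against WT was −0.20, with 5 above 0 and 12 below. None of the 17 exceeded Runx1 on either table. The highest of them, Gart, a gene of purine synthesis named after its values were seen, came to 0.63 (SE 0.25, adjusted p 0.187), and Il10rb and Rcan1 had negative values and fell on raw FPKM but were not called on normalised FPKM, with raw log2 fold changes of −0.80 (SE 0.17, adjusted p 0.03246) and −0.95 (SE 0.22, adjusted p 0.03554). Inside the segment, 16 genes were tested with a median of 0.59, and 5 exceeded Runx1. Of the 16, 3 were called upward, where 0.423% of all genes were. The called genes were Erg, an ETS factor of blood stem cells, at 1.54 (SE 0.25, adjusted p 0.01097), the ubiquitin ligase gene Ttc3 at 1.10 (SE 0.22, adjusted p 0.03514) and the chromatin assembly gene Chaf1b at 1.07 (SE 0.23, adjusted p 0.04808). Cebpd also lies on chromosome 16, away from Runx1 and outside the segment.

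Cebpa, Cebpb and Cebpd all had negative differences in Ts1Rhr against WT, and Cebpb fell on raw FPKM. The Cebpb promoter is shown because Cebpb had the largest negative fold change of the tested factors. The stretch lies at chr2:167688665-167688914 on the plus strand (RefSeq, GRCm38.p6), and capitals mark a match to GGGNGTGG, the KLF motif, read on the other strand.
Cebpb promoter: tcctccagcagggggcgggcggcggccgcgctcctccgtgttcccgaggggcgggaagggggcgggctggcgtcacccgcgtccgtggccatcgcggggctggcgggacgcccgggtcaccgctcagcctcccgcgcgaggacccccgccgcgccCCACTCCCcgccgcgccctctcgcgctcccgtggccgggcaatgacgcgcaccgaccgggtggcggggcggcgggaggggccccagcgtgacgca
The match lay at bases −95 to −88 from the RefSeq start. Of all promoter windows of this length, 17.6% held this motif, and the window held no match to the C/EBP motif, which 10.8% held.

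Normalised FPKM of Cebpb was 9.37, 8.02 and 7.77 in Ts1Rhr and 16.4, 26.4 and 8.99 in HMGN1_OE, against 24.3, 15.6 and 14.0 in WT. All Ts1Rhr libraries lay below all WT libraries and varied little among themselves, with a CV of 10.3%, against 50.6% in HMGN1_OE, where replicate 3 lay within the Ts1Rhr range. The log2 fold change between Ts1Rhr and WT was −1.06 (SE 0.33, adjusted p from limma 0.1204) on normalised FPKM. On raw FPKM Cebpb fell to 8.07 ± 0.395 in Ts1Rhr, against 18.6 ± 3.37 in WT (SD, n = 3 each), a log2 fold change of −1.18 (SE 0.28, adjusted p from limma 0.03648). This raw call was lost in each fit without a Ts1Rhr or a WT library (adjusted p from limma up to 0.1627), with log2 fold changes of −1.27 to −1.04 over all 9 such fits.

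Cebpa, the progenitor factor, was more abundant than Cebpb, Cebpd and Cebpe in every library. Normalised FPKM of Cebpa was 33.3, 20.1 and 16 in Ts1Rhr and 25.4, 52.8 and 21.8 in HMGN1_OE, against 52.2, 37.2 and 32.8 in WT. Ts1Rhr replicate 1 reached into the WT range, and HMGN1_OE overlapped both other groups. The log2 fold change between Ts1Rhr and WT was −0.86 (SE 0.34, adjusted p from limma 0.1888). On raw FPKM the Ts1Rhr and WT groups did not overlap, and it was −0.87 (SE 0.25, adjusted p 0.05149). With libraries shifted to a common median it passed the threshold, at −0.99 (adjusted p from limma 0.04433). It did not with raw FPKM scaled by 1 spike-in factor per library, with changed filters or with a term for replicate number.

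Cebpd, an acute-phase relative, was low and variable. Its normalised FPKM was 4.04, 3.66 and 1.56 in Ts1Rhr and 1.97, 4.51 and 2.37 in HMGN1_OE, against 6.19, 2.53 and 3.69 in WT. All groups overlapped, and the log2 fold change between Ts1Rhr and WT was −0.44 (SE 0.44, adjusted p from limma 0.597). It came to 0.33 without WT replicate 1 and Ts1Rhr replicate 3, the opposite sign. Cebpe, needed for the late granules of neutrophils, had raw FPKM of 0.0789, 0 and 0 in Ts1Rhr and 0, 0 and 0.136 in HMGN1_OE, against 1.03, 0.238 and 0 in WT. It was thus listed at 0 in 5 of 9 libraries, in each group at least once, and was not tested. The highest value, 1.03, came from WT replicate 1.

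The summed raw FPKM of the 4 C/EBP genes was 42.0, 31.5 and 27.4 in Ts1Rhr and 47.9, 61.6 and 31.1 in HMGN1_OE, against 74.6, 56.0 and 61.9 in WT. The share of each gene in this sum overlapped between the groups. Cebpa made up 67.0% ± 5.85 of it in Ts1Rhr and 61.7% ± 4.68 in HMGN1_OE, against 63.7% ± 3.23 in WT (SD, n = 3 each). Cebpb made up 24.9% ± 6.26 in Ts1Rhr and 32.4% ± 5.71 in HMGN1_OE, against 28.8% ± 1.19 in WT. The ratio of Cebpb to Cebpa on normalised FPKM was 0.388 ± 0.103 in Ts1Rhr, against 0.437 ± 0.0247 in WT, a log2 difference of −0.20 with an exact two-sided permutation p of 0.5.

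Relatives that pair with C/EBP proteins and regulators of their stability gave no call in Ts1Rhr against WT. Of 11 such genes 10 were tested, with a median raw log2 fold change of −0.12, 5 above 0 and 5 below. The most abundant were the stress response factor Atf4, Trib2, Cebpg and Ddit3, which encodes CHOP. Atf4 had a raw log2 fold change of 0.05 (SE 0.13) and Ddit3 of 0.23 (SE 0.32). Cebpg, a C/EBP protein without an activating domain, came to 0.21 (SE 0.12, adjusted p from limma 0.271), and Trib2, a pseudokinase that promotes C/EBPα breakdown, of 0.29 (SE 0.22, adjusted p 0.386). Known C/EBP targets of granulocytes lay lower where they were tested. Of 11 targets 8 were tested, all 8 had negative differences on both tables, and the median was −0.66 on normalised and −0.82 on raw FPKM. None was called on normalised FPKM and 1 on raw FPKM, where 4.56% of all genes fell. Il6ra, the interleukin-6 receptor, fell on raw FPKM to 4.78 ± 1.07 in Ts1Rhr, against 8.03 ± 0.565 in WT (log2 fold change −0.76, SE 0.21, adjusted p from limma 0.04916). In HMGN1_OE against WT all 8 tested targets had negative differences too, with medians of −0.66 on normalised and −0.84 on raw FPKM. All but Il6ra, Prtn3 and Ctsg of these targets also stand in the neutrophil marker list.

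**Figure D3:**
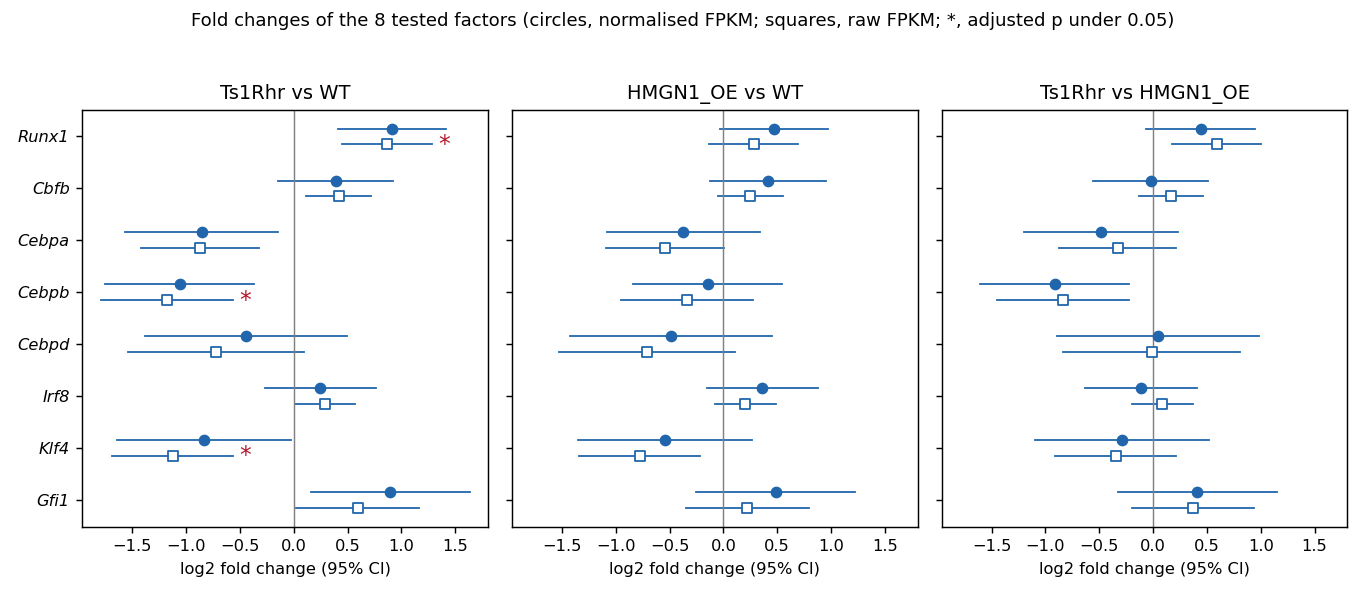
Log2 fold change of each tested factor, with 95% confidence intervals from limma, in the 3 comparisons, for normalised (circles) and raw FPKM (squares), with an asterisk at an adjusted p under 0.05. In Ts1Rhr against WT, Runx1 lies at 0.91 on normalised and 0.87 on raw FPKM and Cebpb at −1.06 and −1.18.

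Irf8 was the most abundant of the factors on mean raw FPKM and differed little. Its normalised FPKM was 59.8, 67.2 and 63.0 in Ts1Rhr and 57.2, 83.6 and 67.0 in HMGN1_OE, against 60.9, 57.3 and 43.4 in WT. The groups overlapped, and the log2 fold change between Ts1Rhr and WT was 0.25 (SE 0.24, adjusted p from limma 0.5913), with 0.099 without WT replicate 3 as the lowest and 0.34 without WT replicate 1 as the highest value when 1 library was left out. On raw FPKM the groups did not overlap, at 57.5 to 68.9 in Ts1Rhr against 50.1 to 54.8 in WT, with a log2 fold change of 0.29 (SE 0.13, adjusted p 0.1476). Monocyte genes that Irf8 is known to activate differed in the other direction. All 5 tested had negative values on both tables, with a median of −1.03 on normalised FPKM, where none was called, and 3 fell on raw FPKM, where 4.56% of all genes did. These were the protease inhibitor gene Cst3 at −1.20 (SE 0.21, adjusted p from limma 0.02831), the cathepsin gene Ctss at −1.13 (SE 0.28, adjusted p 0.03741) and the MD-1 gene Ly86 at −1.02 (SE 0.19, adjusted p 0.0309).

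Klf4, a zinc finger factor of inflammatory monocytes, was low in every library and lower in Ts1Rhr. Its promoter is shown beside that of Cebpb, as the other factor that fell on raw FPKM. It lies at chr4:55532476-55532725 on the minus strand (RefSeq, GRCm38.p6) and has no capitals because none of the motifs searched matched in it.
Klf4 promoter: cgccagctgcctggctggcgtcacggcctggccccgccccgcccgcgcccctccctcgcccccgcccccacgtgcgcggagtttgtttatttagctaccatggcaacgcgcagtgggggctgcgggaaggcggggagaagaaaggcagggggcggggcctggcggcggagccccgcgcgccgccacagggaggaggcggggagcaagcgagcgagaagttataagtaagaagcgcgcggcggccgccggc
Normalised FPKM of Klf4 was 2.34, 1.75 and 1.98 in Ts1Rhr and 1.45, 3.62 and 2.83 in HMGN1_OE, against 3.25, 4.06 and 3.48 in WT. Ts1Rhr and WT did not overlap, and HMGN1_OE overlapped both. The log2 fold change between Ts1Rhr and WT was −0.83 (SE 0.38, adjusted p from limma 0.2419) on normalised FPKM. On raw FPKM Klf4 fell to 1.77 ± 0.197 in Ts1Rhr, against 3.98 ± 0.516 in WT (SD, n = 3 each), a log2 fold change of −1.13 (SE 0.25, adjusted p from limma 0.03325). This raw call too was lost in each fit without a Ts1Rhr or a WT library (adjusted p from limma up to 0.1413), with log2 fold changes of −1.22 to −1.03.

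Gfi1, the repressor, was as low as Klf4 and had the opposite sign. Its normalised FPKM was 4.55, 3.18 and 4.06 in Ts1Rhr and 2.15, 3.09 and 3.76 in HMGN1_OE, against 1.67, 2.59 and 2.11 in WT. Ts1Rhr lay above WT without overlap, and HMGN1_OE overlapped both. The log2 fold change between Ts1Rhr and WT was 0.90 (SE 0.35, adjusted p from limma 0.1863) on normalised and 0.59 (SE 0.26, adjusted p 0.148) on raw FPKM.

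Over the 8 tested factors, normalised FPKM of Ts1Rhr lay wholly above WT for 3 (Runx1, Cbfb and Gfi1) and wholly below for 2 (Cebpb and Klf4). Among all tested genes the shares were 21.7% above and 8.43% below. On raw FPKM the counts were 4 above, with Irf8 added, and 3 below, with Cebpa added, and the shares over all genes were 19.1% and 18.5%.

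**Figure D4:**
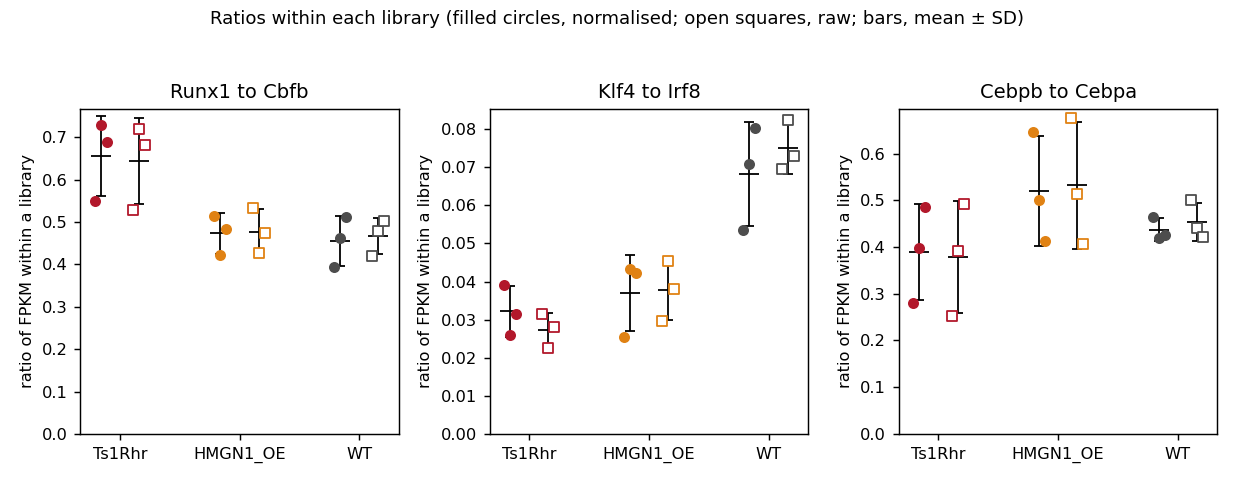
Ratios of a pair of factors within each library, by group, as filled circles (normalised FPKM) and open squares (raw FPKM), with the mean and SD of each group of 3 as black bars. On normalised FPKM, Klf4 to Irf8 averages 0.0322 in Ts1Rhr and 0.0369 in HMGN1_OE, against 0.0682 in WT, and Runx1 to Cbfb averages 0.655 in Ts1Rhr and 0.473 in HMGN1_OE, against 0.455 in WT.

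Klf4 and Irf8 both act in monocyte formation, Irf8 also in B cells, and their ratio separated WT from both mutant groups. On normalised FPKM it was 0.0392, 0.026 and 0.0314 in Ts1Rhr and 0.0254, 0.0433 and 0.0422 in HMGN1_OE, against 0.0534, 0.0708 and 0.0803 in WT. Every WT library was higher than every library of the other groups. The log2 difference was −1.08 for Ts1Rhr against WT and −0.90 for HMGN1_OE against WT, each with an exact two-sided permutation p of 0.1, the smallest possible, and 0.225 adjusted over the 9 ratio comparisons. Both comparisons use the same WT libraries. The ratios were chosen after the values had been seen.

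Other transcription factors of the myeloid lineages, 22 with a row and 16 tested, mostly had negative values, as Cebpa, Cebpb and Klf4 did. In Ts1Rhr against WT, 13 had negative and 3 positive differences on both tables, and the median raw log2 fold change was −0.58, against 0.01 over all genes. None was called on normalised FPKM and 4 on raw FPKM, 1 upward and 3 downward. Of all genes, 4.29% were called upward and 4.56% downward on raw FPKM. Among the 4 called factors, Sfpi1, the older symbol of the gene for PU.1, fell to 25.3 ± 4.74 raw FPKM in Ts1Rhr, against 52.3 ± 12.3 in WT (SD, n = 3 each; log2 fold change −1.04, SE 0.28, adjusted p from limma 0.04599). Tfec, a macrophage factor, fell by 0.89 on the log2 scale (SE 0.24, adjusted p from limma 0.04673). Myb, a factor of progenitors, rose by 0.74 (SE 0.20, adjusted p from limma 0.04599), to a mean of 350 raw FPKM in Ts1Rhr, against 210 in WT.

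Markers of other cell types differed beside these factors in Ts1Rhr against WT. All 16 macrophage and monocyte markers had negative log2 fold changes on both tables, with a raw median of −0.85. None was called on normalised FPKM, and 6 fell on raw FPKM, where 4.56% of all genes did. These were the complement gene C1qa at −1.90 (SE 0.37), Csf1r, the receptor that macrophages need, at −1.12 (SE 0.25), Cd68 at −1.05 (SE 0.25), Emr1, which encodes F4/80, at −0.90 (SE 0.23), the Fc receptor gene Fcgr3 at −0.84 (SE 0.19) and the mannose receptor gene Mrc1 at −0.74 (SE 0.18), with adjusted p from limma of 0.03111 to 0.0429. Of 11 tested neutrophil markers none was called on either table, and the raw median was −0.82. In the B-lineage list none of 18 was called on normalised FPKM, and 6 rose and none fell on raw FPKM, where 4.29% of all genes rose, with a median of 0.56. These were Dntt, which adds bases at antigen receptor joints, at 1.32 (SE 0.26), the transcription factor gene Lef1 at 1.10 (SE 0.21), Vpreb2, Vpreb1 and Igll1, which encode the surrogate light chain, at 1.02 (SE 0.27), 0.96 (SE 0.23) and 0.93 (SE 0.20), and the recombinase gene Rag2 at 0.98 (SE 0.19), with adjusted p from limma of 0.0309 to 0.04476. The 5 tested stromal markers, Bgn, Sparc, Fn1, Col1a2 and Lox, which encode matrix proteins and an enzyme that links them, fell on both tables, with normalised log2 fold changes of −3.25 (SE 0.51, Bgn) to −1.84 (SE 0.30, Lox). Of all genes, 0.147% fell on normalised and 4.56% on raw FPKM. The stromal list of 7 summed to 6.791 to 15.16 raw FPKM in Ts1Rhr and 5.166 to 14.8 in HMGN1_OE, against 67.65 to 101.3 in WT. The part of cell makeup in the values of Runx1, Cebpb and Klf4 was not tested.

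**Figure D5:**
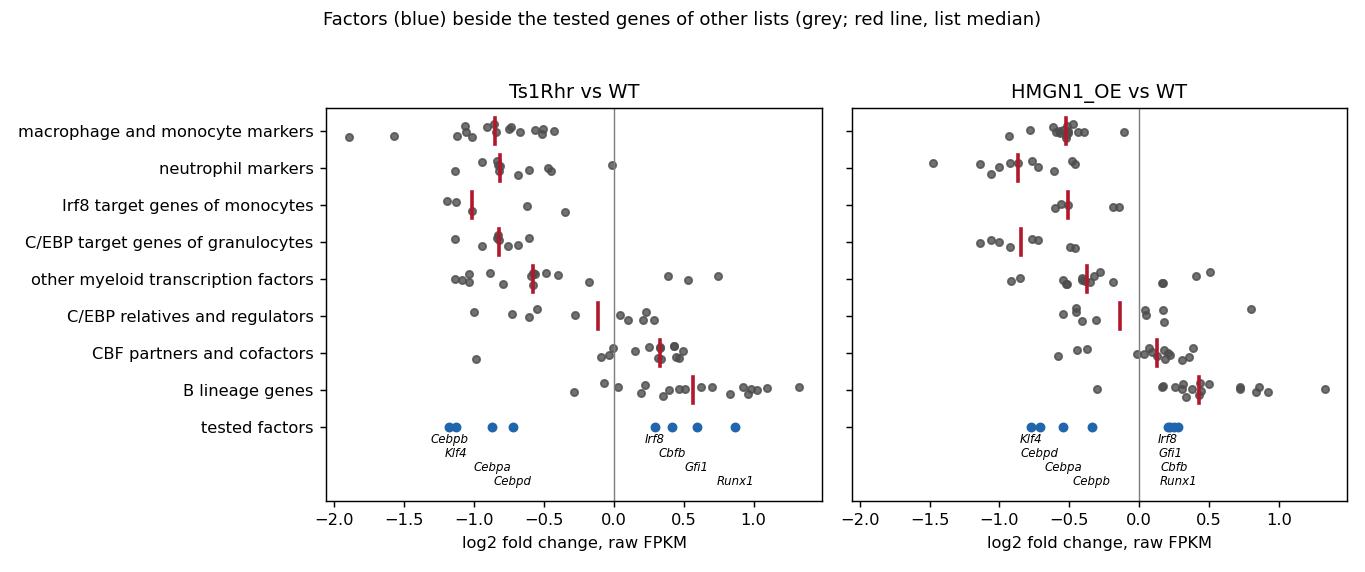
Raw log2 fold changes of the tested factors (blue) and of the tested genes of other lists (grey, with the list median as a red line), in Ts1Rhr against WT on the left and HMGN1_OE against WT on the right. The macrophage and monocyte markers have medians of −0.85 in Ts1Rhr and −0.52 in HMGN1_OE, and the B-lineage genes of 0.56 and 0.43.

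In HMGN1_OE against WT no factor was called on either table, where limma called 10 genes (0.0919%, with 0.00919% upward and 0.0827% downward) on normalised and 4 (0.0368%) on raw FPKM. At an unadjusted p under 0.05, the factors numbered 0 on normalised FPKM, where 11.7% of all genes had such a p, and 1 on raw FPKM, where 14.6% had. Normalised FPKM of Runx1 averaged 27.3 ± 3.54 in HMGN1_OE, against 19.7 ± 2.32 in WT (SD, n = 3 each), without overlap, and the log2 fold change was 0.47 (SE 0.24, adjusted p from limma 0.4535). The median gene differed by 0.21 on normalised FPKM. On raw FPKM, where it differed by 0.01, Runx1 came to 0.28 (SE 0.19, adjusted p 0.4969) and the groups overlapped, at 21.8 to 27.0 in HMGN1_OE against 17.3 to 22.2 in WT. Runx1 was the only factor without overlap on normalised FPKM, where 16.6% of all genes lay wholly above WT and 0.8% wholly below. Klf4 lay wholly below WT on raw FPKM, at 1.74, 2.71 and 2.46 in HMGN1_OE against 3.48, 4.51 and 3.94 in WT, with a log2 fold change of −0.78 (SE 0.25, adjusted p from limma 0.2922), and 8.25% of all genes did so. Cbfb and Irf8 lay wholly above WT on raw FPKM, as did 9.81% of all genes, with log2 fold changes of 0.25 and 0.20.

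Cebpb and Cebpa were most uneven in HMGN1_OE. The normalised log2 fold change against WT was −0.15 for Cebpb (SE 0.33, adjusted p from limma 0.8782) and −0.37 for Cebpa. Cebpa came to −0.76 without HMGN1_OE replicate 2, to −0.12 without HMGN1_OE replicate 3, to −0.23 without HMGN1_OE replicate 1 and to −0.18 without WT replicate 1. Both genes were highest in HMGN1_OE replicate 2 and lowest in replicate 3. The summed macrophage markers ranged from 12850 to 26790 raw FPKM over the same libraries. None of the 16 macrophage and monocyte markers was called in HMGN1_OE against WT on either table. Their log2 fold changes were negative for all 16 on raw FPKM, with a median of −0.52, and for 15 of 16 on normalised FPKM.

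Ts1Rhr was also set against HMGN1_OE, where background strain and genotype cannot be told apart. No gene was called on either table by limma, with 475 genes (4.37%) at an unadjusted p under 0.05 on normalised and 963 (8.85%) on raw FPKM, and 1 and 2 of the 8 factors. Runx1 was higher in Ts1Rhr without overlap on both tables, with a log2 fold change of 0.44 (95% confidence interval −0.06 to 0.94, adjusted p from limma 0.9885) on normalised and 0.59 (0.17 to 1.01, adjusted p 0.5367) on raw FPKM. It was the only factor without overlap, and 1.79% of all genes lay wholly above HMGN1_OE and 6.6% wholly below on normalised FPKM, 6.89% and 5.99% on raw FPKM. Cebpb had a log2 fold change of −0.91 (SE 0.33, adjusted p from limma 0.9885) on normalised and −0.84 (SE 0.28, adjusted p 0.5367) on raw FPKM, with overlapping groups. On normalised FPKM it was −0.54 without HMGN1_OE replicate 2 and −1.32 without HMGN1_OE replicate 3. Irf8 and Cbfb changed sign between the tables here: the log2 fold changes were −0.11 (SE 0.24) and −0.02 (SE 0.25) on normalised FPKM, and 0.09 (SE 0.13) and 0.17 (SE 0.14) on raw FPKM.

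By the shape of its profile over the 9 libraries, each factor was set against all other tested genes whose raw FPKM averaged 5 or more. The measure was the root mean square difference of centred log2(raw FPKM + 0.1) values. It describes these libraries and says nothing of shared control. The 3 genes nearest to Runx1 were Rrm1, a subunit of ribonucleotide reductase, at 0.080, the RNA-binding gene Tia1 at 0.093 and Trmt10a, a tRNA methyltransferase gene, at 0.096, where the root mean square of Runx1 itself was 0.42. Cebpa was nearest to Tgm2 at 0.11, Spp1 at 0.11 and Clec4d at 0.12, genes of transglutaminase, osteopontin and a C-type lectin of myeloid cells, where Cebpa itself had 0.47. Cebpb was nearest to Ebi3, a cytokine subunit gene, at 0.17, then Cd276 and Pltp at 0.19 each, beside 0.60 for Cebpb itself. Cebpd was nearest to Csf3r at 0.20, and Klf4 to 4930404N11Rik at 0.19, followed by Ifitm3 and Fhl3 at 0.23 each. Cbfb was nearest to Lta4h, Irf8 to Pbxip1 and Gfi1 to Mettl2.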

How the data were processed

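The authors deposited FPKM per gene in a raw table and in a normalised table, 1 column per library. Per the submitters' processing notes, HISAT, Cufflinks 2.0.0 and mm9 were used. The method behind the second table, not given in the sources used here, is left unnamed. Of 23398 rows, 92 spike-in rows and 27 rows with dates for symbols were left out, and the 10878 rows whose raw FPKM averaged 1 or more were tested with limma 3.58.1 in R 4.3.3 (intensity trend, 9 libraries in 1 fit, no replicate block, two-sided p). Normalised values entered as log2, raw values as log2(FPKM + 0.1), so folds understate changes of low genes. Since FPKM are not counts, count tests were not used, and depth in reads is unknown. Low values gave whole-read steps for too few genes to recover reads. The most common step, shared by 29 to 77 genes per library, gave only a rough depth relative to WT replicate 3. It was 1.133 to 1.395 in the Ts1Rhr and HMGN1_OE libraries, and 0.7474 and 0.8123 in WT replicates 1 and 2. The part of depth in the values of low genes was not tested. No library was a copy of another.

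The 9 factors and the gene lists were chosen with earlier results of these data known. All factors were named, as were up to 6 called genes of a list, otherwise up to 4 of its most abundant genes, and the 3 genes most like a factor. Some genes that this rule names are not reported here, and a few others are named as chosen after their values were seen. Spi1 was matched by its older symbol Sfpi1, and this match was added after the first results were seen. Promoters came from RefSeq on GRCm38.p6, a later build than mm9, for 7 of the 9 factors. The code was tested on simulated data. Alternatives were the raw table, another pseudocount, filters, scalings, the block and left-out libraries.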

Additional observations from a re-analysis of the deposited data

How the results depend on the processing

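Over alternatives other than a left-out library, 220 of 231 results of single factors kept their direction, 11 turned and 10 gained a call. No factor was called as reported, so none could lose a call. In Ts1Rhr against WT, the number of called genes was 62 as reported, 693 with libraries shifted to the same median, 8 with no filter, 267 with only these groups in the fit, 113 with 1 spike-in factor per library, 963 on raw FPKM with a pseudocount of 0.1, 940 with 1, 11 without WT replicate 1 and Ts1Rhr replicate 3, and 4 to 203 with each library left out. Of the 8 tested factors, 0 were called as reported. With the same median 3 were called, beside 693 of all 10878 tested genes. With only these groups 1 was called (Cebpb), beside 267 of 10878. On raw FPKM 3 were called with either pseudocount, beside 963 and 940 of 10878. With 1 spike-in factor per library 0 were called, beside 113 of 10878. With each library left out of the normalised fit, 0 were called. Runx1 passed the threshold at 0.78 with the same median, at 0.87 on raw FPKM with a pseudocount of 0.1 and at 0.84 with 1. It ranged from 0.73 to 1.04 with each library left out. Cebpd ranged from −0.75 to −0.0068 with each library left out, and was 0.33 without WT replicate 1 and Ts1Rhr replicate 3. In HMGN1_OE against WT, called genes were 10 as reported, 4 with no filter, 19 with a pseudocount of 1 on normalised FPKM, 18 with only these groups, 54 with spike-in factors, 4 on raw FPKM with a pseudocount of 0.1, 19 with 1, and 1 to 17 with each library left out. Runx1 then ranged from 0.39 to 0.58. Cebpb ranged from −0.52 to 0.26 and was 0.09 without both named libraries. In Ts1Rhr against HMGN1_OE, called genes were 0 as reported, 1 with a pseudocount of 1 on normalised FPKM, 41 with spike-in factors, 3 without both named libraries and 0 to 3 with each left out. Runx1 ranged from 0.26 to 0.57. Cbfb turned to 0.049 with the same median, 0.27 with spike-in factors, 0.17 and 0.16 on raw FPKM with pseudocounts of 0.1 and 1, and 0.07 without both named libraries (−0.20 to 0.13 with each left out). Irf8 turned to 0.19, 0.088 and 0.086 under spike-in factors and the raw pseudocounts (−0.24 to 0.031 with each left out), and Cebpd to −0.011 on raw FPKM (−0.21 to 0.48 with each left out). The ratio of Runx1 to Cbfb in HMGN1_OE against WT ranged from −0.04 to 0.15 with each library left out, and that of Cebpb to Cebpa in Ts1Rhr against WT from −0.38 to 0.01. For these shifts the cause was not tested. With a minimum mean of 5 FPKM, Klf4, Gfi1 and Cebpd were not tested. Between libraries of equal replicate number, correlations of deviations ran from −0.13 to 0.16 over 9 pairs on normalised FPKM. In 1 of these pairs the library correlated best with its own number. Whether equal numbers were paired cannot be settled this way, and the labels do not say. With the replicate block 119 genes were called in Ts1Rhr against WT and 5 in Ts1Rhr against HMGN1_OE, with no factor among the calls of any comparison.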

Other observations

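Promoters of other factors held motifs too. Of the 10 RefSeq promoter windows of 7 factors, that of Gfi1 held the C/EBP letters TTGCNNAA at bases −143 to −136 from its start and the KLF letters GGGNGTGG at −113 to −106, and its second window held the KLF letters at −139 to −132. The windows of Irf8 held the GFI1 letters AAATCA at −175 to −170 and at −226 to −221. Among all windows, 10.8% held the C/EBP, 17.6% the KLF and 14% the GFI1 letters. None of the motifs searched matched in those of Cebpa and Cbfb.

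Progenitor surface genes went in both directions in Ts1Rhr against WT, with a median normalised log2 fold change of −0.83 over the 3 tested. Kit, the stem cell factor receptor, rose by 1.65 (SE 0.28, adjusted p from limma 0.0151). Cd34 and Ly6a were not called, at −0.88 (SE 0.55, adjusted p from limma 0.3834) and −0.83 (SE 0.54, adjusted p from limma 0.4002). Car2, which encodes a carbonic anhydrase of erythroid cells, rose too, by 1.21 (SE 0.25, adjusted p from limma 0.04104). Over 7 erythroid markers, raw FPKM summed to 91.12 to 118.3 in Ts1Rhr and 55.35 to 92.15 in HMGN1_OE, against 36.46 to 55.71 in WT. Only Car2 of them was tested, as the others averaged under 1 raw FPKM, so this sum mostly repeated Car2. In Ts1Rhr replicate 3 and HMGN1_OE replicate 2, 6 of the 7 rows were at 0. The 7 dendritic cell markers summed to 29.03 to 31.01 in Ts1Rhr and 26.18 to 41.94 in HMGN1_OE, against 35.7 to 47.89 in WT. Most of that sum was Itgax, with a mean of 27.3 raw FPKM in Ts1Rhr and 30.1 in HMGN1_OE, against 37.2 in WT. The 7 mast cell and basophil markers stayed low, at 0.1692 to 2.694 in Ts1Rhr and 1.008 to 4.046 in HMGN1_OE, against 0.9572 to 2.504 in WT, and the 7 T and NK cell markers at 2.066 to 3.554 in Ts1Rhr and 1.399 to 4.629 in HMGN1_OE, against 2.605 to 3.921 in WT.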
